A study of Mus musculus with 12 samples.

Results

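Baseline gene expression in the hippocampus was compared between normal offspring (F1_Ctl) and normal mice of the parental generation (F0_Ctl). The comparison takes the 3 columns of each of these groups in the deposited count table, 6 of the 12 libraries of the series. F0_Ctl were unstressed male C57BL/6 mice, a common inbred strain, and F1_Ctl were male C57BL/6 offspring fathered by normal males. The other groups, used here only beside the normal mice, were F0_Dep, males with a depressive state brought on by stress, and F1_Dep, male offspring fathered by such males. All mice were 8 weeks old, there were 3 per group, and none of the labels names a mutation or a drug. The mice of a group are called independent in the labels, but no father, mother or litter is named, so offspring may share one. Lane names of the sequencer stand in the labels of F1_Ctl alone, so a difference in sequencing and a difference in generation cannot be told apart here.

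The hippocampus passes signals from the granule cells of the dentate gyrus to the pyramidal cells of CA3 and on to those of CA1. It carries receptors for glucocorticoids, the stress hormones of the adrenal gland, at high density, and is for that reason a common tissue in work on stress and depression. Normal mice of both generations, neither of them stressed, show how far unstressed mice of this series differ. That difference includes any from sequencing, which cannot be told apart from generation.

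Library totals of the 6 normal mice ran from 18968204 to 22566385 expected counts, and values below are in CPM, counts scaled to a common library size. Ddx3y, a Y-linked RNA helicase, had 63.4, 69.6 and 71.0 CPM in F0_Ctl and 66.6, 69.1 and 66.9 in F1_Ctl; Xist was not analysed here. Per transcript length, in FPKM (fragments scaled for transcript length and depth), which were used for F0_Ctl and not for F1_Ctl, the 10 nuclear entries of highest mean level were 6 predicted copies of mitochondrial genes and 4 named genes. The named genes were Fth1, the iron-storing ferritin heavy chain, at 2631 ± 462 FPKM (SD, n = 3), Mbp, a myelin protein, at 1483 ± 722, Hpca, the neuronal calcium sensor hippocalcin, at 1297 ± 299, and Ttr, the thyroid hormone carrier of the choroid plexus, at 1277 ± 2206. Hpca stood at 1449, 953 and 1489 FPKM in the 3 F0_Ctl mice. Ttr stood at 2.25, 3.92 and 3824, so its mean rests on F0_Ctl 3 alone. F0_Ctl 3 and F1_Ctl 3 stood apart from the other normal mice by their choroid plexus RNA (the summed values are given with that list). The defining genes of the hippocampus were present in every mouse, with Prox1, the transcription factor of dentate granule cells, at 139 CPM or more. Mbp is a poor marker in the count table, where it had 55.0 to 75.2 CPM in all 6 mice beside 801, 1409 and 2238 FPKM in F0_Ctl.

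Some entries of the count table share their sequence with another gene, and their counts depend on where the reads were placed. The letters below are from GENCODE M21 on GRCm38, 5′ to 3′ along the transcript, and show how alike 3 such pairs are. Gm28661 on chromosome 1 (24614885 to 24615565, minus strand) matches all of its 681 bases to mt-Co2, a subunit of cytochrome oxidase encoded on the mitochondrial genome (7013 to 7696, plus strand). Bases 1 to 90 of both are:
mt-Co2: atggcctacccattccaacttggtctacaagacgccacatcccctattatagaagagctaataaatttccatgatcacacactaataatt
Gm28661: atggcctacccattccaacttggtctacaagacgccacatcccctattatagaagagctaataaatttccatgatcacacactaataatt
Gm10359 on chromosome 5 (105862701 to 105863702, minus strand) is a processed pseudogene whose 1002 bases all match Gapdh, the glycolytic enzyme on chromosome 6 (125161715 to 125166467, minus strand). Bases 1 to 90 of the copy and its source are:
Gapdh: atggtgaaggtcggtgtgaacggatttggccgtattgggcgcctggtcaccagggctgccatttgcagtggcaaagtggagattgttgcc
Gm10359: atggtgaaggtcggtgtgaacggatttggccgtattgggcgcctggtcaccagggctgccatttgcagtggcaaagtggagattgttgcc
Eif4a-ps4 on chromosome 1 (60703932 to 60705149, plus strand) matches 1217 of its 1218 bases to Eif4a1, an RNA helicase of translation initiation on chromosome 11 (69666936 to 69672423, minus strand). The single substitution is G534A, with the base of Eif4a1 first and positions counted from 1 at the 5′ end of the Eif4a-ps4 transcript. Bases 489 to 578 are shown with that base in capitals:
Eif4a1: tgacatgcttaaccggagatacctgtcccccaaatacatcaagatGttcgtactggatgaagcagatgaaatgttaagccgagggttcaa
Eif4a-ps4: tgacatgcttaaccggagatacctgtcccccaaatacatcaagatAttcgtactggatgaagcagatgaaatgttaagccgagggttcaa

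No gene passed the test between F1_Ctl and F0_Ctl. Of 16163 genes tested with the edgeR quasi-likelihood test, 0 (0%) had a Benjamini-Hochberg adjusted p under 0.05, and the smallest adjusted p was 0.75. DESeq2 and limma voom with sample quality weights also called 0 genes, with 1025 and 2363 at an unadjusted p under 0.05. An unadjusted edgeR p under 0.05 was reached by 957 genes (5.92%), 462 of them higher in F1_Ctl (2.86%) and 495 lower (3.06%). An edgeR fit of F0_Ctl and F1_Ctl alone also called 0 of 15665 genes. It had 241 genes at an unadjusted p under 0.05 and a smallest adjusted p of 0.976. The other edgeR fits hold all 4 groups and share their estimate of spread with F0_Dep and F1_Dep, which varied less. Their p-values and standard errors are therefore not those of normal mice alone. Log2 fold changes of F1_Ctl against F0_Ctl had a median of 0.02 and ran from -0.49 at the 5th percentile to 0.54 at the 95th, beside a median standard error of 0.17. The log2 fold change was above 0 in 8734 genes (54%), and the values of the 3 F1_Ctl mice lay outside the range of F0_Ctl in 980 genes (6.06%), above it in 439 (2.72%) and below it in 541 (3.35%).

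That count rested on which mice were in it. Without F1_Ctl 1 the test called 400 genes (2.43%), 153 higher (0.929%) and 247 lower (1.5%) in the other F1_Ctl mice. Without F0_Ctl 3 it called 9 genes (0.0548%), 7 higher (0.0426%) and 2 lower (0.0122%), and without F0_Ctl 3 and F1_Ctl 3 together 18 genes (0.11%), all 18 higher in F1_Ctl. Leaving out any other single normal mouse gave 0. These fits keep 5 or 4 normal mice, and each group that is left with 2 mice shares the estimate of spread with the other groups.

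Among genes higher in F1_Ctl with groups that did not overlap, Efemp1, an extracellular matrix fibulin, had the smallest p. It had 5.80, 5.08 and 6.13 CPM in F0_Ctl and 7.17, 10.5 and 12.3 in F1_Ctl, a log2 fold change of 0.82 ± 0.19 (SE). Its nearest values across the generations were those of F0_Ctl 3 and F1_Ctl 1. Kctd4, of the potassium channel tetramerisation domain family, had 86.6, 87.4 and 114 CPM in F0_Ctl and 140.0, 176 and 143 in F1_Ctl (0.67 ± 0.16). Zc3hav1, an antiviral zinc finger protein, had 5.70, 5.80 and 8.76 against 9.14, 12.1 and 14.1 CPM (0.80 ± 0.21). For Kctd4 every offspring stood well above the parental range, whereas for Zc3hav1 F1_Ctl 1 lay next to F0_Ctl 3. Gprc5b, an orphan G protein-coupled receptor, had 196, 222 and 205 CPM in F0_Ctl and 231, 286 and 302 in F1_Ctl (0.40 ± 0.11). The proton pump subunit Atp6v1a was even among F0_Ctl mice, at 497, 489 and 495 CPM, and stood at 576, 709 and 579 in F1_Ctl (0.33 ± 0.10). The other 5 of these 10 genes were Hibch, Lrrc17, Epb41l2, Cd300c2 and Lonrf3, with log2 fold changes of 0.31 to 0.84. Each of the 10 had an unadjusted edgeR p of 0.0049 or less and an adjusted p of 0.75.

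Among genes lower in F1_Ctl, Cdc25b, a phosphatase that drives entry into mitosis, had the smallest p. It had 31.8, 32.3 and 22.4 CPM in F0_Ctl and 19.8, 15.5 and 13.3 in F1_Ctl (log2 fold change -0.83 ± 0.18). F0_Ctl 3 was the lowest of its group and stood nearest to the offspring. Clcn2, a chloride channel, had 65.2, 81.3 and 57.8 CPM against 52.7, 43.3 and 40.4 (-0.58 ± 0.14). Csf2ra, the receptor chain for the cytokine GM-CSF, had 36.1, 33.8 and 31.4 against 28.9, 20.2 and 21.3 CPM (-0.53 ± 0.14). In Csf2ra, as in Styx, Hexdc and Rfx1, F1_Ctl 1 lay closer to the F0_Ctl mice than to the other offspring. Rfx1, a transcription factor, had 38.4, 43.9 and 41.7 CPM in F0_Ctl and 37.3, 25.3 and 25.4 in F1_Ctl (-0.50 ± 0.13). Gpr101, an orphan receptor, had the largest log2 fold change of these 10, -2.60 ± 0.68, from 2.49, 11.1 and 1.09 CPM against 0.571, 1.05 and 0.799. Its difference came with 1 mouse, F0_Ctl 2, far above the others. Ccdc84, Styx, Hexdc, Cabyr and P3h1 had log2 fold changes of -0.67 to -0.46.

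**Figure D1:**
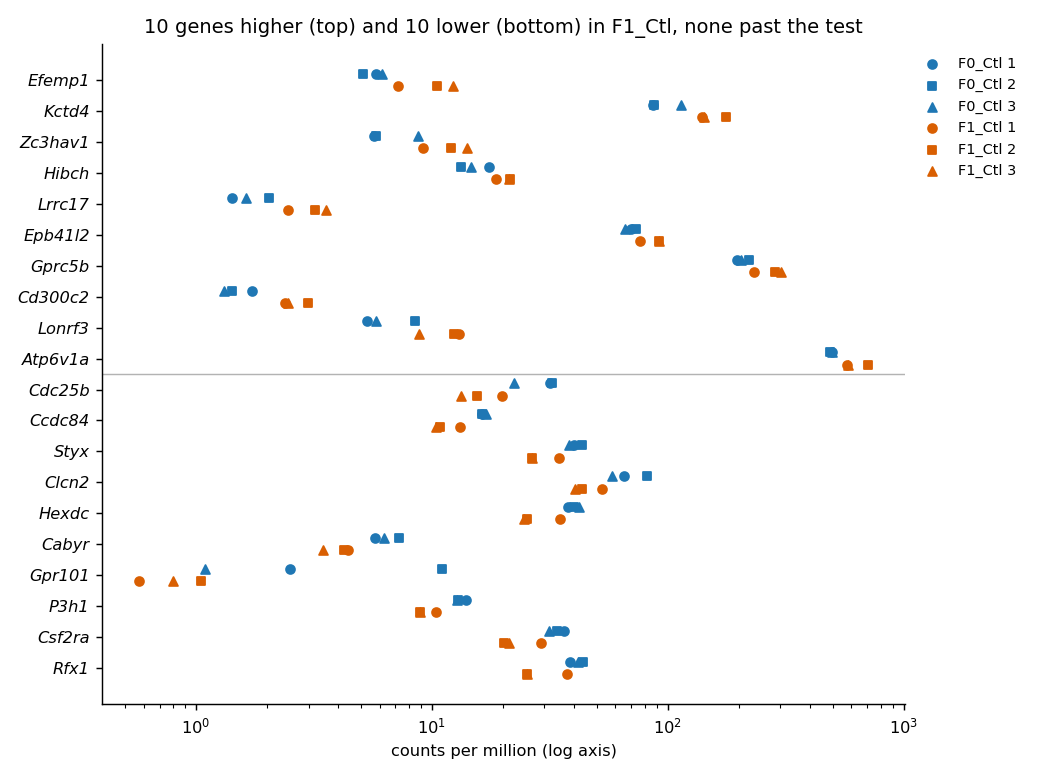
CPM (log axis) of the 20 genes with the smallest p among those whose groups did not overlap, 10 higher and 10 lower in F1_Ctl, with 1 point per mouse. No gene passed the test, and in Efemp1, Rfx1 and Hexdc the F1_Ctl 1 point sits beside the F0_Ctl points.

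Promoters of the genes named by rule were searched for 4 short motifs in the 250 bases before each RefSeq start (GRCm38.p6), on both strands. The core of the cyclic AMP response element (TGACGT) was found before 11 of 77 named genes with an entry, any start counted, against 6.47% of 32851 single promoters. The glucocorticoid response element hexamer (AGAACA) was found before 4, against 16.1%, the E-box (CACGTG) before 8, against 6.02%, and the TATA box (TATAAA) before 12, against 12.4%. The stretch before Csf2ra on chromosome 19 (61228419 to 61228668, minus strand) is shown because it holds the core on both strands of a single palindrome, in capitals. The stretch before 1 of the 6 starts of Sgk1 on chromosome 10 (21993640 to 21993889, plus strand) is shown for its 3 hexamers, the first of which overlaps an E-box.
Csf2ra: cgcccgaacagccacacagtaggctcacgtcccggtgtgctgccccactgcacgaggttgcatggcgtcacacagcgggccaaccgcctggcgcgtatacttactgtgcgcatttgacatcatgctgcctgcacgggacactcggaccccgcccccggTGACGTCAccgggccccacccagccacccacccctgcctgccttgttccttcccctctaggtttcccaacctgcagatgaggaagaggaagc
Sgk1: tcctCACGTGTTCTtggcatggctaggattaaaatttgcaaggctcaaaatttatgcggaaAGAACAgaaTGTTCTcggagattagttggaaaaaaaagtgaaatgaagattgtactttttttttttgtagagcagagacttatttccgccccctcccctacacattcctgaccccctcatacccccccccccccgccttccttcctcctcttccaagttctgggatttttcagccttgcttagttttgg
These matches describe letters in the windows and say nothing of binding.

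The levels of the pyramidal fields differed more between F0_Ctl mice than between the generations, while the F1_Ctl mice stood closer together. A list's level in a mouse is the median over its genes of the log2 CPM minus the gene's mean over the 6 normal mice. All 16 genes of the CA3 and CA2 list had a positive log2 fold change in F1_Ctl, with a median of 0.41, beside 54% and 0.02 over all genes tested. Their level was -0.92 and -0.59 in F0_Ctl 1 and 2, 0.71 in F0_Ctl 3, and 0.40, 0.35 and 0.10 in F1_Ctl. F0_Ctl 3 was thus above all offspring and the other F0_Ctl mice below them, so the groups overlapped. The CA1 list ran the other way: 9 of its 12 genes stood lower, with a median of -0.63, and its level was 0.99, 0.53 and -0.94 in F0_Ctl against -0.42, 0.04 and -0.09 in F1_Ctl. Dentate granule genes stood closer together, at 0.05, 0.04 and -0.30 against 0.27, -0.05 and 0.02, with 15 of 16 above 0 and a median of 0.20.

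Nectin3, a cell adhesion protein of the CA3 list, had 23.9 and 24.4 CPM in F0_Ctl 1 and 2, 52.1 in F0_Ctl 3, and 48.6, 57.2 and 48.3 in F1_Ctl. Cpne4, a calcium-binding copine, had 55.8, 84.9 and 232 CPM in F0_Ctl and 214, 182 and 141 in F1_Ctl. Wfs1, the endoplasmic reticulum protein that marks CA1, had 424, 211 and 61.4 CPM against 111, 141 and 138, and was picked after its values were seen, as was Cpne4. Within F0_Ctl, the first and the third mouse were at opposite ends in all 3 genes. Without F0_Ctl 3 the median of the CA3 and CA2 list was 1.08, and 3 of its 16 genes were among the 9 called, with Nectin3 at 1.09 ± 0.12 (adjusted p = 0.0116), Bok at 1.45 ± 0.15 and Iyd at 1.83 ± 0.25. Without F0_Ctl 3 and F1_Ctl 3 together, 7 of the 16 were called (Nectin3, Bok, Homer3, Iyd, Prkcd, Grik4 and Cpne4), beside 0.11% of all genes. Both fits leave out F0_Ctl 3, the only F0_Ctl mouse whose level on this list was above the offspring. They therefore cannot tell a difference between the generations from the choice of mouse. Without F0_Ctl 1 the median was 0.05, and that of the CA1 list -0.08. In bulk tissue, fewer cells of a field and less RNA per cell cannot be told apart. F0_Ctl 3 was also the F0_Ctl mouse of highest choroid plexus level, given below, whose part in these values was not tested.

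**Figure D2:**
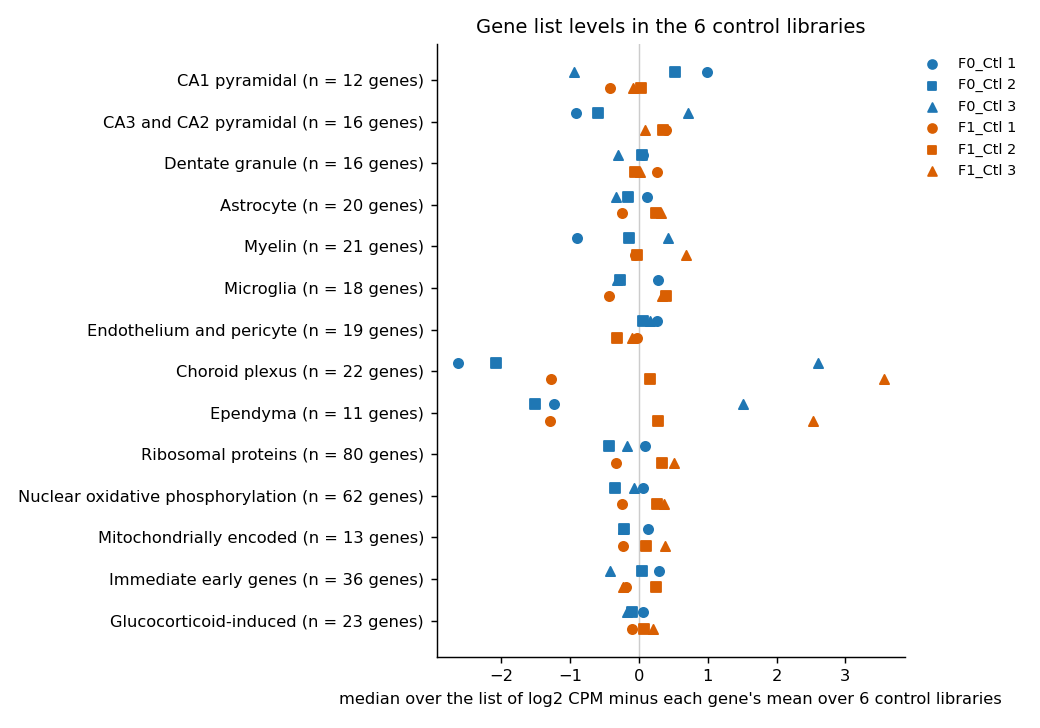
Levels of 14 gene lists in each normal mouse (median over the list of centred log2 CPM), F0_Ctl in blue and F1_Ctl in orange. The choroid plexus and ependyma points run from -2.63 to 3.56 with F0_Ctl 3 and F1_Ctl 3 at the top. The endothelium and pericyte points are the only ones here that separate the generations, not more than chance would give among 43 lists.

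Markers of the choroid plexus and of the ependyma varied more between mice than those of any hippocampal field. All 22 choroid plexus genes, from the tissue that makes cerebrospinal fluid, had positive log2 fold changes in F1_Ctl, with a median of 0.99. Their summed level was 273, 368 and 6841 CPM in F0_Ctl and 477, 1160 and 12980 in F1_Ctl. Both groups thus hold 1 mouse far above the rest, F0_Ctl 3 and F1_Ctl 3, and the median was -1.75 without F1_Ctl 3, 4.66 without F0_Ctl 3 and 2.08 without both. Ttr itself had 3.00, 5.08 and 4636 CPM against 94.2, 531 and 8263, a log2 fold change of 0.94 ± 1.99. The barrier genes Clic6 and Cldn2 were at 0 in F0_Ctl 1. The 11 ependymal genes, of the ciliated cells lining the ventricles, were again highest in F0_Ctl 3 and F1_Ctl 3, with levels of -1.23, -1.51 and 1.51 against -1.29, 0.28 and 2.54. Their median of 0.95 was 2.92 without F0_Ctl 3, -0.50 without F1_Ctl 3 and 1.27 without both. Genes of the striatum summed to 502 to 606 CPM in F0_Ctl and 483 to 576 in F1_Ctl, with 9 of 15 higher and a median of 0.06.

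Vessel genes gave the 1 list among the 43 whose levels did not overlap between the generations. For a single list, full separation of 3 against 3 mice has an exact two-sided permutation p of 0.1. Thus 1 of 43 lists is not more than chance would give. Of 19 endothelial and pericyte genes 17 had log2 fold changes below 0, the median was -0.21, and the levels were 0.26, 0.07 and 0.16 in F0_Ctl and -0.02, -0.31 and -0.10 in F1_Ctl. Their summed level did overlap, at 988, 813 and 1035 CPM against 856, 789 and 1121, with F1_Ctl 3 the highest of all. Slco1a4, an organic anion transporter of the blood-brain barrier, had 61.2, 51.4 and 57.1 CPM against 47.6, 35.8 and 44.6 (log2 fold change -0.41 ± 0.11). Esam, an adhesion molecule of endothelial junctions, had 18.3, 13.9 and 15.03 against 13.2, 9.63 and 11.3 (-0.46 ± 0.14). In both genes F1_Ctl 1 stood just under the lowest F0_Ctl mouse, F0_Ctl 2. An unadjusted p under 0.05 with a lower value was reached by 5 of the 19, beside 3.06% of all genes, and 4 of the 19 had groups that did not overlap, beside 3.35%. None passed the adjusted test with all mice. Without F1_Ctl 1, 2 of the 19 were called lower, beside 1.5% of all genes: Flt1, a receptor for the growth factor VEGF, at -0.52 ± 0.12 and Tek, the angiopoietin receptor, at -0.52 ± 0.12. F1_Ctl 1 was the offspring whose level on this list lay nearest to F0_Ctl. The fit without it therefore cannot tell a difference between the generations from the choice of mouse. The median stayed between -0.36 and -0.17 when single normal mice were left out.

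Astrocyte, microglial and myelin genes mostly stood higher in F1_Ctl without separating the groups, and those of oligodendrocyte precursors did not, with 7 of 12 above 0 and a median of 0.03. Of 20 astrocyte genes 19 had positive log2 fold changes, with a median of 0.21, and levels were 0.11, -0.15 and -0.33 in F0_Ctl against -0.25, 0.25 and 0.32 in F1_Ctl. Gfap, the intermediate filament of astrocytes, had 380.3, 276 and 289.7 CPM in F0_Ctl and 332, 508 and 537 in F1_Ctl (0.54 ± 0.19). F1_Ctl 1 lay inside the F0_Ctl range for Gfap, and the other offspring above it. The microglial list had 17 of 18 genes above 0 and a median of 0.22, and Aif1, the marker IBA1, stood at 3.05, 2.14 and 2.54 CPM against 2.55, 4.51 and 4.39. Myelin genes were above 0 in 21 of 21, with a median of 0.37 and levels of -0.89, -0.15 and 0.42 against -0.05, -0.02 and 0.68. In myelin the highest mouse of each group was again the third, and the median was 0.04 without F1_Ctl 3, 0.70 without F0_Ctl 3 and 0.39 without both. Without both, the median was 0.02 for astrocyte and 0.03 for microglial genes. Complement C4b, made by glia, had 28.7, 28.9 and 40.5 CPM against 33.1, 48.5 and 81.3 (0.73 ± 0.26, and 0.31 without F1_Ctl 3).

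Genes of the ribosome and of respiration ranked the mice in the same order. Of 80 ribosomal protein genes 79 had positive log2 fold changes, with a median of 0.38, and 23 had an unadjusted p under 0.05, beside 2.86% of all genes on the higher side. Their level was 0.10, -0.43 and -0.17 in F0_Ctl and -0.34, 0.34 and 0.51 in F1_Ctl, so that F1_Ctl 1 stood with F0_Ctl 2 at the low end. Rpl35, of the large subunit, had 98.7, 66.7 and 87.0 CPM against 82.2, 140.2 and 146 (0.54 ± 0.19). In none of the 80 did the groups separate. Nuclear genes of oxidative phosphorylation followed the same order, with 60 of 62 above 0, a median of 0.26 and levels of 0.06, -0.34 and -0.08 against -0.25, 0.27 and 0.36. Without F1_Ctl 1, 36 of the 80 ribosomal genes and 10 of the 62 respiratory genes were called higher, beside 0.929% of all genes, as were 4 of the 20 astrocyte genes. F1_Ctl 1 was the offspring of lowest level on each of these lists. The fit without it therefore cannot tell a difference between the generations from the choice of mouse. Without F1_Ctl 3 the ribosomal median was 0.19.

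The share of counts from genes of the mitochondrial genome was 8.26 ± 0.86% in F0_Ctl and 9.20 ± 1.73% in F1_Ctl (SD, n = 3; exact two-sided permutation p = 0.7, where 0.1 is the smallest 3 against 3 can give). The difference of 0.934 percentage points was 0.0722 without F1_Ctl 3 and 1.81 without F1_Ctl 1. Single mice had 9.26, 7.75 and 7.78% in F0_Ctl and 7.45, 9.22 and 10.9% in F1_Ctl, with F1_Ctl 1 the lowest and F1_Ctl 3 the highest of all. Of the 13 genes 12 had positive log2 fold changes, with a median of 0.23. mt-Nd4l, a subunit of complex I, had the smallest p among them, with 478, 466 and 428 CPM against 559, 549 and 618 (0.33 ± 0.11). F1_Ctl 3 was the highest mouse for the share as for the ribosomal level, and F1_Ctl 1 and F0_Ctl 2 were among the 3 lowest for both.

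The receptors of the stress hormones differed little between the generations. Nr3c1, the glucocorticoid receptor, had 115, 113 and 72.2 CPM in F0_Ctl and 82.4, 124 and 105 in F1_Ctl (log2 fold change 0.05 ± 0.17). Nr3c2, the mineralocorticoid receptor, had 289.6, 255 and 218 against 292, 273 and 203 (0.01 ± 0.16). For both the groups overlapped, and the sign of both turned without TMM scaling. Fkbp5, a chaperone of the glucocorticoid receptor that its own hormone induces, had 49.8, 53.2 and 46.9 against 59.3, 47.5 and 46.9 CPM (0.04 ± 0.12), also with a sign that turned without TMM scaling. Sgk1, a kinase induced by the same hormones, had 62.8, 54.8 and 87.8 CPM against 77.4, 85.6 and 145 (0.58 ± 0.25, unadjusted p = 0.0352 in the edgeR fit). Its highest mouse in each group was the third, and the log2 fold change was 0.24 without F1_Ctl 3, 0.81 without F0_Ctl 3 and 0.48 without both. Plin4, a lipid droplet protein, had 1.78, 4.47 and 3.59 against 3.91, 3.08 and 7.39 CPM. Of 23 glucocorticoid-induced genes 17 were above 0 with a median of 0.18, which was 0.03 without F0_Ctl 3 and F1_Ctl 3. Crhr1, the receptor of corticotropin-releasing hormone, had 13.4, 12.3 and 6.31 CPM against 7.83, 9.52 and 7.39.

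Activity genes, which neurons switch on within minutes of firing, differed mainly between mice. Fos, a transcription factor, had 29.1, 26.2 and 12.7 CPM in F0_Ctl and 15.7, 42.6 and 10.8 in F1_Ctl, a log2 fold change of 0.02 ± 0.44, with a sign that turned without TMM scaling. Arc, a synaptic capsid-like protein, had 436, 296 and 116 against 151, 299 and 127 (-0.55 ± 0.41). Egr1, a zinc finger transcription factor, had 448, 287 and 110.3 against 164, 225 and 154 (-0.64 ± 0.37). F0_Ctl 3 was the lowest parental mouse for all 3 genes, and F1_Ctl 2 the highest offspring. The 36 immediate early genes divided evenly, 18 above and 18 below 0, with a median of -0.02. Bdnf, the growth factor of neurons, stood at 65.2, 51.4 and 55.7 CPM against 63.9, 62.5 and 61.4 (0.12 ± 0.13).

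Of 22 neuropeptide genes 18 stood lower in F1_Ctl, with a median of -0.13, beside 54% above 0 and a median of 0.02 over all genes tested. The levels of this list overlapped, at 0.28, 0.02 and -0.14 in F0_Ctl against -0.13, -0.17 and 0.02 in F1_Ctl. Vgf, a secreted precursor that Bdnf induces, had 196, 198 and 163 CPM in F0_Ctl and 149, 143 and 134 in F1_Ctl (log2 fold change -0.39 ± 0.11). Every offspring was below the lowest F0_Ctl mouse. Vip, a peptide of interneurons, had 16.2, 15.2 and 7.81 against 8.70, 8.42 and 9.78 (-0.54 ± 0.24), with F0_Ctl 3 below the offspring. Dcx, of migrating young neurons, had 16.9, 28.2 and 25.1 CPM against 22.4, 17.8 and 15.6, and 15 of 18 genes of immature neurons stood lower with a median of -0.21. Receptors for glutamate had 6 of 22 above 0 and a median of -0.17, and those for GABA 5 of 14 and -0.07. The levels of these receptor lists and of the immature neuron list overlapped between the generations.

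Spread within the normal groups was wider than in the stress lineage by the median over genes, but not for every list. The SD of log2 CPM over 3 mice had a median over genes of 0.21 in F0_Ctl, 0.23 in F1_Ctl, 0.12 in F0_Dep and 0.13 in F1_Dep. In 7265 of 16163 genes (44.95%) both normal SDs lay above both stress SDs, and the reverse held in 814 (5.036%). The common biological coefficient of variation, edgeR's estimate of relative spread beyond counting, was 25.4% and 26.2% in the normal groups against 9.37% and 13.4% in F0_Dep and F1_Dep. Genes are not independent replicates, and with 3 mice a group this difference in spread was not tested over mice. Dentate granule and striatal genes had their largest median SD in F1_Dep, at 0.52 and 1.31. SDs of the normal generations were related across genes (Spearman's rho 0.499 over 16163 genes, given as a description).

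**Figure D3:**
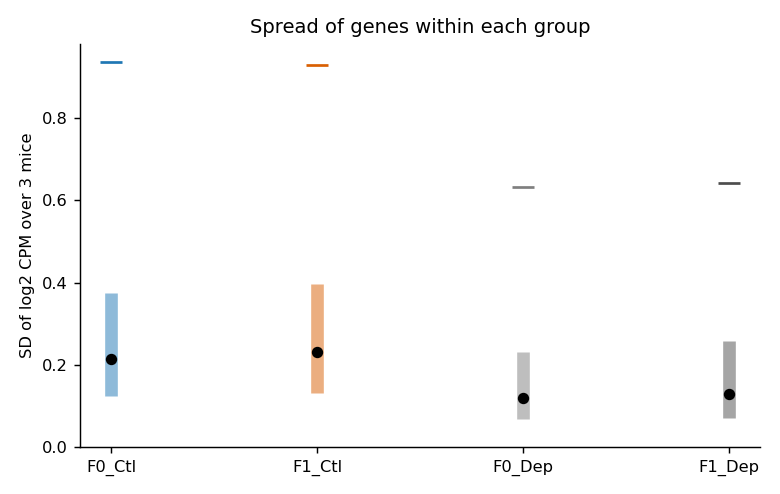
SD of log2 CPM over the 3 mice of each group, as the median over 16163 genes (black points), the 25th to 75th percentile (bars) and the 95th percentile (ticks). Both normal groups sit above both groups of the stress lineage at each of these marks.

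Distances between single mice gave the same picture. Over 13279 genes with a mean of at least 2 CPM, the median absolute log2 difference was 0.20 to 0.23 between F0_Ctl mice, 0.19 to 0.29 between F1_Ctl mice and 0.12 to 0.30 between the generations. The closest of the 15 pairs was F0_Ctl 2 with F1_Ctl 1, at 0.12, and the farthest was F0_Ctl 2 with F1_Ctl 3, at 0.30, both of them across generations. Pairs within F0_Dep were 0.10 to 0.13 apart and those within F1_Dep 0.09 to 0.15. The first principal component of the normal mice held 53.5% of the variance and put F0_Ctl 3 (25.9) and F1_Ctl 3 (47.6) at one end, the mice with the highest choroid plexus level, with F1_Ctl 2 at 4.76 and the others between -31.0 and -19.7. Without these mice, the pairs within a generation were 0.22 and 0.23 apart and the 4 pairs between generations 0.12 to 0.24.

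**Figure D4:**
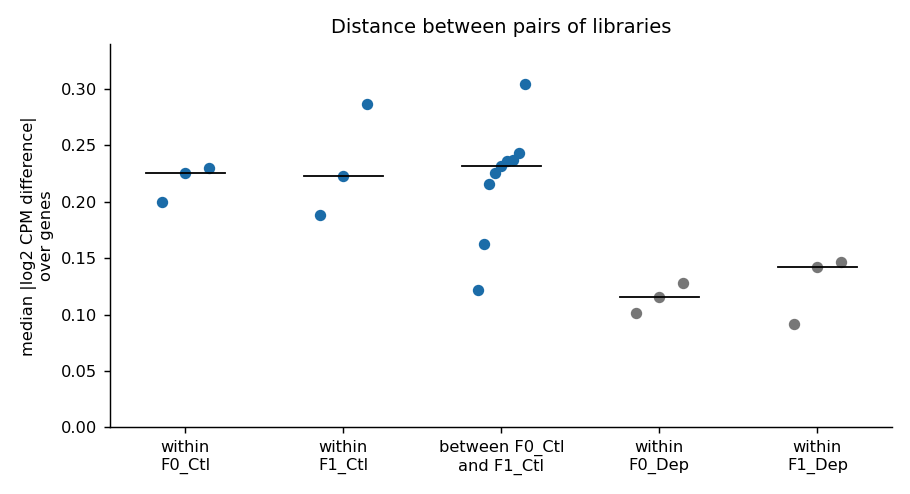
Median absolute log2 CPM difference over 13279 genes for each pair of mice, within each group and between the normal generations, with black lines at the median of the pairs. The 9 pairs across generations run from 0.12 to 0.30, around the pairs within each normal group, and pairs within the stress lineage lie lower, at 0.09 to 0.15.

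Genes of the choroid plexus had the widest spread. With predicted genes passed over, Ttr had the largest SD within the normal groups, followed by Clic6, Mfrp, Kcnj13 and Cldn2, and choroid plexus or ependymal list genes made up 24 of the top 100, beside 0.233% of genes with at least 2 CPM; these lists were chosen with results of these data known. Kcnj13, a potassium channel, had 0.0509, 0.0475 and 30.3 CPM in F0_Ctl and 0.923, 3.14 and 63.3 in F1_Ctl. Gdf1, a growth factor whose transcript also encodes Cers1, had 27.0, 0 and 16.3 CPM against 1.89, 5.78 and 23.1. At the other end, Gars, the glycyl-tRNA synthetase, had 121.1, 120.9 and 119.7 CPM in F0_Ctl and 122.7, 123.2 and 123.9 in F1_Ctl, with SDs of 0.00894 and 0.00695 on the log2 scale. Cbx7, a Polycomb protein, had 60.9, 60.0 and 61.8 against 58.1, 58.2 and 58.0.

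Predicted genes and pseudogenes were 16 of the 100 genes of largest spread (16%), beside 5.264% of genes with at least 2 CPM. Gm10359, with the Gapdh sequence shown above, had 0, 28.2 and 12.6 CPM in F0_Ctl and 9.98, 0.826 and 0 in F1_Ctl. Its FPKM in F0_Ctl were even, at 21.8, 20.4 and 23.9. Gapdh itself had 1596, 1235 and 1479 CPM in F0_Ctl. Gm12671, a further copy of the same letters, had the same 6 CPM values as Gm10359. Eif4a-ps4 had 0, 14.8 and 6.67 CPM in F0_Ctl and 16.0, 7.87 and 0 in F1_Ctl, beside FPKM of 5.87, 3.74 and 3.79 in F0_Ctl. For both copies the count of 0 in F0_Ctl 1 came with FPKM above 0 in that mouse, so their spread among F0_Ctl mice is not one that both deposited measures show.

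The same contrast of generations called more genes in the stress lineage. F1_Dep against F0_Dep had 465 genes past the adjusted threshold (2.88%), 212 higher and 253 lower. These contrasts share no mice, and over genes their log2 fold changes had a Pearson r of 0.176 and the same sign in 55.84%, given as a description. Of the 465 genes, 202 (43.44%) had the same sign in the normal mice. In F1_Dep against F0_Dep the median log2 fold change was 3.83 for choroid plexus, 2.19 for ependymal and 2.03 for striatal genes. It was 1.01 for myelin genes and -1.14 for dentate granule genes. What part these list differences and the lower spread of the stress lineage had in its count and in the interaction was not tested. The difference of the contrasts itself, the generation by stress interaction, passed for 11 genes (0.0681%). Kctd4, Lrrc17, Unc5d, Lyst, Adarb2, Galnt2 and Sema5a had positive log2 fold changes in normal mice and negative ones in the stress lineage. Vgf, Plk3 and Krt80 had negative ones in normal mice and positive ones in the stress lineage. The remaining gene was mt-Co2. In normal mice none of the 11 passed the test. Across the alternatives their log2 fold change there ran from 0.07 to 0.36 for Sema5a and from -0.71 to -0.04 for Krt80.

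Vgf had 142, 148 and 131 CPM in F0_Dep and 257, 214 and 204 in F1_Dep, a log2 fold change of 0.68 ± 0.11 beside -0.39 ± 0.11 in normal mice (adjusted p = 0.0367 for the interaction in the edgeR fit). Its values in F1_Ctl were near those of F0_Dep. Plk3, a stress-responsive kinase, had 8.96, 9.59 and 8.40 CPM in F0_Dep and 20.8, 20.0 and 16.7 in F1_Dep, against 13.1, 14.3 and 12.1 in F0_Ctl and 9.45, 10.1 and 10.6 in F1_Ctl (1.09 ± 0.12 beside -0.39 ± 0.12). Sema5a, an axon guidance protein, had 247, 224 and 285 CPM in F0_Dep and 88.1, 117 and 88.5 in F1_Dep, against 188, 184 and 166 in F0_Ctl and 266, 196 and 180.0 in F1_Ctl. Plk3 and Sema5a had FPKM of 2.36 to 2.89 and 22.0 to 28.2 in F0_Dep, and 5.81 to 7.24 and 7.88 to 10.8 in F1_Dep, in the direction of their counts.

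For 3 of the 11 genes the FPKM did not show a difference of the size in the counts. mt-Co2 had 1496, 1699 and 887 CPM in F0_Dep and 6659 to 7095 in F1_Dep, while Gm28661, with the same letters, held 4253, 4119 and 4664 CPM in F0_Dep and 0 in every other mouse. FPKM of mt-Co2 were 4826 to 4907 in F0_Dep and 4908 to 5369 in F1_Dep. Lrrc17 had 13.1, 14.8 and 10.9 CPM in F0_Dep against 2.43 to 3.70 in F1_Dep, with FPKM of at most 0.0491 in F0_Dep. Galnt2, an enzyme that starts O-linked sugar chains, had 60.7, 66.3 and 61.8 CPM in F0_Dep against 30.6 to 33.9 in F1_Dep, with FPKM of 13.7 to 14.9 and 12.1 to 13.3, lower in F1_Dep but by less. How reads were counted in F0_Dep was not tested. Leaving out F1_Ctl 2 ended the call of all 11 genes, with 0 past the threshold and a smallest adjusted p of 0.0588, and the count was 491 with DESeq2.

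**Figure D5:**
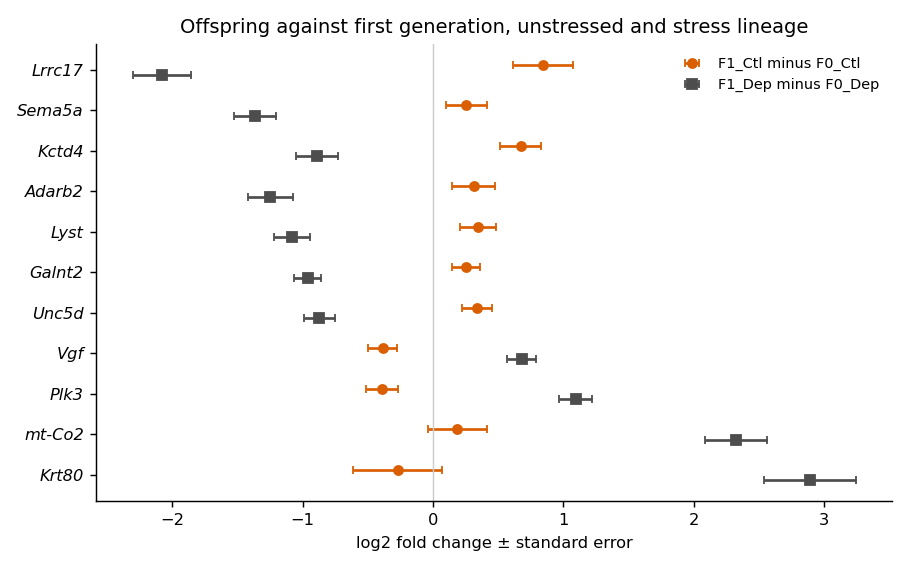
Log2 fold change with its standard error of offspring against the parental generation, in normal mice (orange) and in the stress lineage (grey), for the 11 genes whose difference passed the test. The points of normal mice lie between -0.39 and 0.84, nearer 0 than those of the stress lineage, which run from -2.08 to 2.89.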

How the data were processed

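Hippocampal mRNA of 12 mice was sequenced from libraries of a stranded kit, per the labels' protocols. The authors deposited expected counts, estimates of which 27.2% were not whole numbers, for 35812 gene IDs in 12 libraries, and FPKM values for 9 libraries, not for F1_Ctl. HISAT2, Cufflinks 2.2.1 and mm10 are named without roles, per the submitters' processing notes. The counting tool and its use of strand are not given in sources used here, so overlapping and antisense genes cannot be told apart. Per-sample columns left unused numbered 0.

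Symbols were matched for 35202 IDs, and the 610 without one held 0.579% of counts. Expected counts were rounded, scaled by TMM and filtered by filterByExpr, leaving 16163 genes. Totals were 18277208 to 23083678 per library. All 4 groups were fitted together with the quasi-likelihood F-test of edgeR 4.0.16 (R 4.3.3), and a gene was called below 0.05 after Benjamini-Hochberg adjustment. Standard errors were derived from F and are approximate. Log2 CPM used a prior count of 2. The 12 libraries come from separate mice, per the labels' protocols. Library names of the count table and of the FPKM were taken from the labels. DESeq2 1.42.0 and limma 3.58.1 served as alternatives, with other scalings, filters, libraries left out and a replicate block. The test was checked on simulated counts. Promoters are from RefSeq, transcripts from GENCODE M21, and copies were found with blastn 2.17.0.

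Named genes are, where fewer than 10 pass, the 10 of smallest p in each direction with at least 2 CPM and groups that do not overlap, the 2 of smallest p in each of 43 lists, a set of stress, activity and cell type genes, genes of largest and smallest spread, and the 10 nuclear genes of highest FPKM; predicted genes are passed over, and not all are printed. The members and lists were chosen with earlier results of these data known.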

Additional observations from a re-analysis of the deposited data

Results flagged for a closer look

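In 11 genes the difference between the generations was itself different in normal mice and in the stress lineage, by the interaction term of the edgeR fit. The values are the log2 fold change of F1_Ctl against F0_Ctl minus that of F1_Dep against F0_Dep. It was 2.92 for Lrrc17, 1.62 for Sema5a, 1.56 for Kctd4, 1.56 for Adarb2, 1.43 for Lyst, 1.21 for Galnt2 and 1.21 for Unc5d. It was -3.16 for the keratin Krt80, -2.14 for mt-Co2, -1.49 for Plk3 and -1.07 for Vgf. Lrrc17, Galnt2 and mt-Co2 are the genes whose FPKM did not show a change of that size in the stress lineage.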

How the results depend on the processing

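The count of genes called between the normal generations was 0 under DESeq2, voom, the other scalings and filters, the normal mice alone and the replicate block. It ran from 0 to 400 when single mice were left out (9 without F0_Ctl 3, 400 without F1_Ctl 1) and was 18 without F0_Ctl 3 and F1_Ctl 3 together. The alternatives for the stress lineage were chosen after seeing the data, as were those for the interaction with voom, other scalings, filters or threshold, or without both of these mice. Deviations of same-numbered normal mice had correlations of 0.01, 0.19 and 0.56, beside -0.60 to 0.52 for differently numbered mice. These values cannot settle whether the numbers stand for pairs. The replicate block left 0 calls between the normal generations (smallest adjusted edgeR p 0.797), 177 in the stress lineage and 4 for the interaction.

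For the stress lineage the count of 465 became 1506 with DESeq2, 4703 with voom, 1405 at an adjusted p under 0.1, 196 to 1154 without single normal mice, which share the estimate of spread, and 2069 without F0_Ctl 3 and F1_Ctl 3. For the interaction the count of 11 became 491 with DESeq2, 514 with voom, 6 without TMM scaling, 63 without the filter on low counts, 99 at an adjusted p under 0.1, 0 to 184 without single normal mice and 544 without F0_Ctl 3 and F1_Ctl 3. The median SD was 0.187 in F0_Ctl over genes of at least 2 CPM, and 0.160 in F0_Ctl and 0.164 in F1_Ctl over genes of at least 50 CPM. It was 0.161 to 0.188 in F0_Ctl and 0.156 to 0.229 in F1_Ctl without single mice. The cause of these shifts was not tested.

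The direction turned in 11 of 89 genes checked, most of them near 0. Without TMM scaling, which moved the median of all genes to -0.04 with 42.66% above 0 (51.5% with upper quartile scaling), log2 fold changes were -0.00677 for Nr3c1, -0.0424 for Nr3c2, -0.0164 for Fkbp5 and -0.0356 for Fos. With voom they were -0.0507 for Fkbp5, -0.0162 for Prox1 and -0.0107 for Mbp, and with the replicate block -0.0584 for Fos. Nr3c2 was at -0.00395 with upper quartile scaling, -0.0042 with a mean of at least 2 CPM and -0.00278 with F0_Ctl and F1_Ctl alone. Without F0_Ctl 3 and F1_Ctl 3 values were -0.138 for Nr3c1, -0.0599 for Mbp, 0.0363 for Ddx3y and -0.0396 for mt-Co2. Without single mice the ranges were -0.136 to 0.192 for Nr3c1, -0.0958 to 0.144 for Nr3c2, -0.0819 to 0.091 for Fkbp5, -0.788 to 0.352 for Fos, -0.059 to 0.250 for Prox1, -0.0258 to 0.201 for Mbp, -0.0496 to 0.0249 for Ddx3y, -2.33 to 9.51 for Ttr, -1.22 to 6.01 for Folr1 and -1.31 to 6.87 for F5. An alternative with mitochondrial ribosomal RNA gave no value, since 0 such genes are in the table.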

Other observations

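Etv1, Fezf2, Nts and Gpr101 were high in 1 normal mouse, F0_Ctl 2, and were chosen after their values were seen. The neuropeptide list as a whole was not high there, with a level of 0.02 beside 0.28 in F0_Ctl 1 and the lowest summed CPM of the 6 normal mice, 2324. The list of neocortex pyramidal genes had its highest summed CPM in F0_Ctl 2, 570 beside 321 to 416 in the other mice. Its level differed less, at 0.11 in F0_Ctl 2 beside -0.21 to 0.03. Etv1, a transcription factor of layer 5 neurons, had 220.7 CPM there and 54.3 to 80.9 in the other 5 normal mice. Fezf2, of subcortically projecting neurons, had 53.7 CPM there and 16.1 to 26.1 in the others. Nts, the peptide neurotensin, had 9.08 CPM there and 0.055 to 0.549 in the others, and Gpr101 11.1 CPM beside 0.572 to 2.49. FPKM showed the same mouse as the highest of F0_Ctl, with Etv1 at 13.2, 36.5 and 9.43 and Nts at 0.288, 6.52 and 0.432.

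Chaperones of the endoplasmic reticulum were high in F1_Ctl 3. Hspa5, which encodes BiP, had 379 CPM in that mouse and 185 to 205 in the other 5, and Manf, a secreted factor of the same stress response, had 44.3 beside 22.8 to 29.8. The level of the list of 21 tested genes was 0.34 in F1_Ctl 3 and -0.12 to -0.02 in the others. Snhg11, a neuronal long noncoding RNA, had 1896, 2229 and 1776 CPM in F0_Ctl and 1653, 958 and 719 in F1_Ctl, and was among the 247 genes called lower without F1_Ctl 1 (log2 fold change -1.23). F1_Ctl 1 was the offspring nearest to F0_Ctl for Snhg11, so its call rests on the choice of mouse.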
